A study of Mus musculus with 6 samples.

Results

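Imprinted genes are expressed mainly or only from the copy inherited from one parent. Which copy is silent is set by DNA methylation laid down in the egg or sperm at an imprinting control region, and in several domains a long non-coding RNA made from the unmethylated copy spreads the silence to its neighbours. In the mouse Kcnq1 domain that RNA is Kcnq1ot1, made from the paternal copy, and the protein-coding genes Slc22a18, Cdkn1c and Phlda2 are expressed from the maternal copy. The response of imprinted genes to combined treatment with DAC and TSA was examined in RVP3 cells. DAC (5-aza-2′-deoxycytidine) is a DNA methyltransferase inhibitor and TSA (trichostatin A) a histone deacetylase inhibitor.

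The genes were chosen by symbol from a list of 10 imprinted genes, Slc22a18, Cdkn1c and Phlda2 of the Kcnq1 domain and Igf2r, Grb10, Mest, Peg3, Impact, Gnas and H19 of other domains. Of these, 6 genes with 10 probes carried a name here, out of 8734 named genes in all, namely the 3 genes of the Kcnq1 domain and Igf2r, Impact and Gnas. All 10 probes passed the filter on low signals. Grb10, Mest, Peg3 and H19 had no named probe and were not analysed here. The names at hand covered probes that 2 or more of a group's 3 arrays detected.

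RVP3 is a murine tumour line of C57BL/6 background that the study used as its line not responding to IFNγ. Total RNA of 3 control cultures with no treatment was compared with that of 3 cultures that were given DAC at 3 µM over 48 h, followed by TSA at 30 ng/ml over the next 24 h, all on Illumina bead arrays. Neither agent was given alone on these arrays, so their effects cannot be told apart. The arrays read both parental copies of a gene together and no DNA methylation was measured, so the values are total RNA levels. They come from one cell line, and in bulk RNA fewer expressing cells and less RNA per cell cannot be told apart.

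Signals below are quantile-normalised log2 values unless called signals in intensity units. A probe counts as detected where its detection p-value does not exceed 0.01, between 13227 and 15056 of 45281 probes were detected per array, and a change was called at an adjusted p of 0.01 or less (limma, Benjamini-Hochberg over 16760 probes). Across probes, arrays of the same group correlated more closely (r from 0.992 to 0.997) than arrays of different groups (r from 0.944 to 0.95). Leukocyte markers, which would mark other cells in the cultures, moved with the treatment. Of 14 listed 5 were measured, 4 of them (Lyz1, Lyz2, Cd52 and Laptm5) detected on treated arrays only and Cd79b on control arrays only. Their summed linear signal was 215 to 237 in control and 433 to 444 after DAC/TSA. Lyz1 changed most, from a mean log2 signal of 5.36, at background, to 7.46. The filter kept each of the 5 markers only through the group that detected it, so their directions were fixed beforehand. Their part in the results was not tested. Ptprc and Cd3e, which define leukocytes and T cells, were not among the measured genes. Markers of other cell types went both ways within the endothelial and mesenchymal classes, while epithelial ones rose or were not called. The summed endothelial signal (3 of 9 measured) was 397 to 442 in control and 1710 to 1960 after DAC/TSA, carried by Egfl7 (9.47-fold higher), while Esam was 1.61-fold lower and Kdr was not called. The mesenchymal sum (5 of 10 measured) was 2850 to 3030 and then 5040 to 5100, mostly through Fn1 (4.80-fold higher), while Pdgfra was 1.37-fold lower and Vim, Twist1 and S100a4 were not called. The median log2 changes of these classes were -0.05 and -0.02. The epithelial sum (5 of 10 measured), most of it from Krt8, overlapped at 2330 to 3050 and 2570 to 3200, but Krt14 was 5.55-fold higher and Cldn4, detected on treated arrays only, at least 1.42-fold higher, and Krt8, Krt18 and Cldn7 were not called. The part of these markers in the results was not tested either.

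Since DNA methylation in mammals is set mainly at CpG sites, the 250 bases before the annotated start of the members are shown for 3 genes that rose, with each CpG in capitals (RefSeq, GRCm38.p6). The Slc22a18 window is chr7:143473539-143473788 on the plus strand, the Phlda2 window chr7:143502525-143502774 on the minus strand and the Igf2r window chr17:12769707-12769956 on the minus strand.
Slc22a18: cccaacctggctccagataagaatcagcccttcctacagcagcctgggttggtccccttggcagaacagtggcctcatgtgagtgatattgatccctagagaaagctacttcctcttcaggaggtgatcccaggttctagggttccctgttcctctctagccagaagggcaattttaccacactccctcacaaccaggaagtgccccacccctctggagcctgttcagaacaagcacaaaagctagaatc
Phlda2: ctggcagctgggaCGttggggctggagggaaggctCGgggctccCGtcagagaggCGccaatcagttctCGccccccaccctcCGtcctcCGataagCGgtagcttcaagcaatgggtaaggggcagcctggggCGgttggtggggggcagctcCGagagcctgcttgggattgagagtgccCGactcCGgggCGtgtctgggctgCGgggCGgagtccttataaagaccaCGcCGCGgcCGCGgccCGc
Igf2r: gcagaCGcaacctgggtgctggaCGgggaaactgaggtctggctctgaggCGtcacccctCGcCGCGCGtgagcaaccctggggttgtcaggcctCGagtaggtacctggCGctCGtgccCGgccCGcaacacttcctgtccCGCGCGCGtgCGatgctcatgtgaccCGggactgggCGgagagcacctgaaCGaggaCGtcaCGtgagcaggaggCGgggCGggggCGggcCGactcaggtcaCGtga
The windows differ widely in CpG. Slc22a18 has 0 CpG in its window, which is the case for 7.87% of the 32851 windows of the table, Phlda2 has 21 and Igf2r 27, against a median of 6 over all windows. All windows include those of genes not measured here. Of the measured genes with a single annotated window, 45 had no CpG, 3512 had 1 to 19 and 2113 had 20 or more. Gnas has 4 annotated windows with 14, 21, 22 and 29 CpG. The core motif of the imprint-keeping factor Zfp57 (TGCCGC, searched on both strands, and holding a CpG of its own) occurred in none of these windows and in 8.68% of all windows.

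The 3 listed genes of the Kcnq1 domain were upregulated by DAC/TSA, most of all Slc22a18. Of the other listed imprinted genes measured near them on the chromosome, Cd81 and Igf2 were also called higher, with limits given below, while Tssc4, Nap1l4 and Osbpl5 were not called. Slc22a18 rose from undetected to a clear signal, Cdkn1c rose 2.24-fold and Phlda2 1.60-fold. Of the members of other domains, Igf2r rose 1.46-fold, whereas Impact and the brightest probe of Gnas did not pass the test. In all, 4 of 6 measured members rose and 0 fell (1 in the fit blocked on replicate number), against 27.0% of all 8734 genes called higher, 25.8% called lower and 52.8% called either way. Of the genes called, 51.1% were higher, and 62.1% under median scaling, where 3 of the 6 members were higher. Of the 5 members detected in both groups 3 rose, against 24.2% of the 8037 genes detected in both groups called higher and 26.4% called lower. At a 2-fold minimum 2 of 6 rose and 0 fell, against 7.06% and 3.82% of all genes. All treated arrays lay above all control arrays for 5 of the 6 members and below them for 0, against 34.7% and 34.6% of all genes. The 5 include Impact, which was not called and whose groups lay 0.03 log2 units apart. They also include Slc22a18, which the filter kept only through its treated arrays and which is in the 2-fold count too.

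Slc22a18 is a membrane protein related to organic cation transporters. Its only probe read 35.3, 38.9 and 33.6 intensity units on control arrays 1, 2 and 3 and 178, 198 and 230 on DAC/TSA arrays 1, 2 and 3. The 3 control values lie at background, with the probe detected on 0 of 3 control arrays, and all treated values lie far above them. The normalised log2 signal was 5.21 ± 0.09 (SD, n = 3) in control and 7.57 ± 0.09 after DAC/TSA, at least 3.44-fold higher. This bound sets the treated mean against the lowest signal of a detected probe on each control array. The fitted log2 change was 2.36 ± 0.09 (SE, adjusted p = 1.5e-09, limma), which rests on control values at background. Slc22a18 passed the filter on low signals only through the treated arrays, so that among genes kept this way it had to be higher after treatment. The promoter window without a CpG, printed above, belongs to this gene.

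Cdkn1c encodes a cyclin-dependent kinase inhibitor that holds cells in G1 and restrains fetal growth. Its signals were 63.6, 67.2 and 67.3 units in control and 172, 146 and 178 units after DAC/TSA, detected on all 6 arrays. The control values lie near background, with a mean log2 signal of 6.12. The lowest signal of a detected probe on control arrays was 5.74 to 5.85. With neqc background correction the log2 change of Cdkn1c was 1.55. The groups did not overlap, with 0.99 log2 units between the highest control and the lowest treated array. The change was 1.16 ± 0.10 (SE, adjusted p = 6.93e-07, limma), and 4.84% of all genes had a larger rise. The related kinase inhibitors Cdkn1a and Cdkn1b, named here after their values were seen, had log2 changes of 0.00 ± 0.08 (adjusted p = 0.99) and -0.20 ± 0.10 (adjusted p = 0.106, limma). Cdkn1b lay near background in both groups, with mean log2 signals of 6.07 in control and 5.87 after DAC/TSA, which limits what its probe can show.

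Phlda2 encodes a small pleckstrin homology domain protein that limits growth of the placenta. Its signals were 248, 222 and 263 units in control cells and 421, 409 and 457 units in treated cells. All treated arrays were above all control arrays, by 0.45 log2 units or more. The change was 0.68 ± 0.10 (SE, adjusted p = 5.75e-05, limma). Its relatives Phlda3 and Phlda1, which are not imprinted, rose more, by 1.46 ± 0.11 and 1.35 ± 0.10 (SE), though these differences between genes were not tested.

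**Figure D1:**
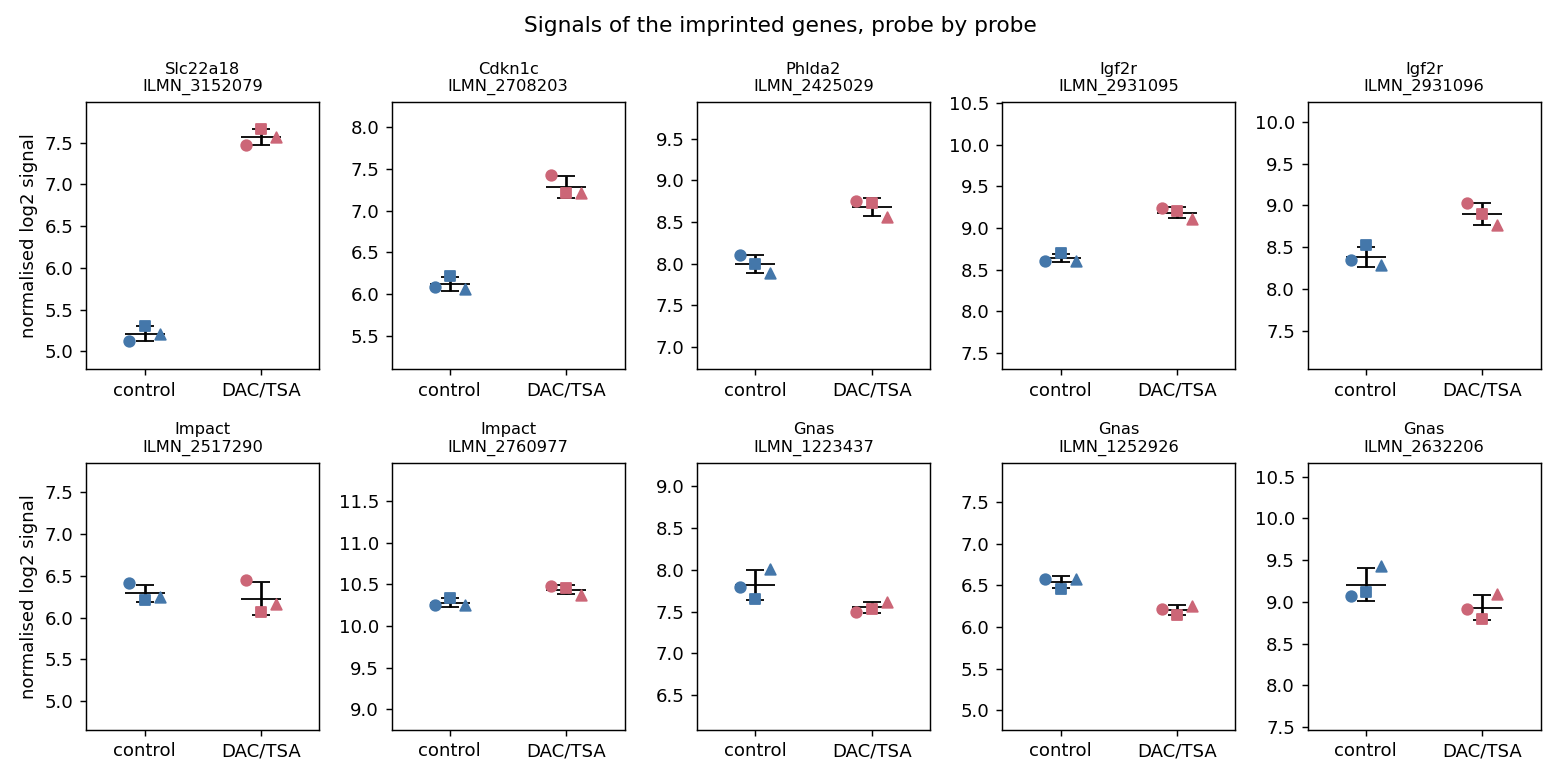
Normalised log2 signal of each of the 10 probes in control and DAC/TSA cells (circle, square and triangle: replicates 1, 2 and 3; bar and whiskers: mean and SD over 3 arrays). Every panel spans the same number of log2 units around its own centre, so that the step from 5.21 to 7.57 of Slc22a18 can be compared by eye with the overlapping groups of Gnas ILMN_2632206 at 9.21 and 8.93.

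Igf2r encodes the receptor that removes IGF2 from the cell surface and sorts lysosomal enzymes tagged with mannose 6-phosphate. It is maternally expressed, silenced on the paternal copy in the presence of the RNA Airn. Both of its probes gave nearly the same change. The brighter one read 353, 367 and 439 units in control and 591, 559 and 664 units after treatment. Its log2 signal went from 8.64 ± 0.05 to 9.18 ± 0.07 (SD, n = 3), a change of 0.54 ± 0.09 (SE, adjusted p = 0.000162, limma). The dimmer one changed by 0.52 ± 0.10 (adjusted p = 0.000778, limma), and neither probe's groups overlapped. Under median scaling both missed the threshold, at 0.56 ± 0.15 (adjusted p = 0.0222) and 0.54 ± 0.14 (adjusted p = 0.0161, limma). The other mannose 6-phosphate receptor, M6pr, named after its value was seen, had a change of -0.34 ± 0.20 (adjusted p = 0.162, limma).

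Impact, a paternally expressed inhibitor of the amino acid sensor kinase Gcn2, did not pass the test. Its brighter probe read 1100, 1161 and 1355 units in control and 1417, 1351 and 1556 units after DAC/TSA. After normalisation the groups lay 0.03 log2 units apart, and the change was 0.15 ± 0.09 (SE, adjusted p = 0.145, limma) with a 95% interval of -0.03 to 0.34. The dimmer probe overlapped between groups and had a change of -0.07 ± 0.11 (adjusted p = 0.628, limma), with an interval of -0.31 to 0.17. A rise or fall larger than these bounds was therefore not seen by either probe.

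Gnas encodes the stimulatory G protein subunit and several further proteins from a row of promoters with opposite imprints. Its 3 probes are tied to different transcript records in the annotation and all had lower means after treatment. The brightest, ILMN_2632206, read 484, 491 and 768 units in control and 471, 425 and 651 units after DAC/TSA, so that replicate 3 was high in both groups and the groups overlapped. Its change was -0.28 ± 0.11 (SE, adjusted p = 0.0541, limma), and with the replicate number as a block it passed the threshold (adjusted p = 0.00419). ILMN_1223437 had a change of -0.27 ± 0.10 (adjusted p = 0.0417), and it too passed with the block (adjusted p = 0.00691). ILMN_1252926, the dimmest, read 87.3, 77.5 and 100 units in control and 76.0, 71.4 and 86.9 units after treatment and fell by 0.33 on the log2 scale (adjusted p = 0.00554, limma). That call was lost under median scaling (adjusted p = 0.231) and without any one of control replicates 1 and 3 and DAC/TSA replicates 1 and 2 (adjusted p from 0.0164 to 0.0308).

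**Figure D2:**
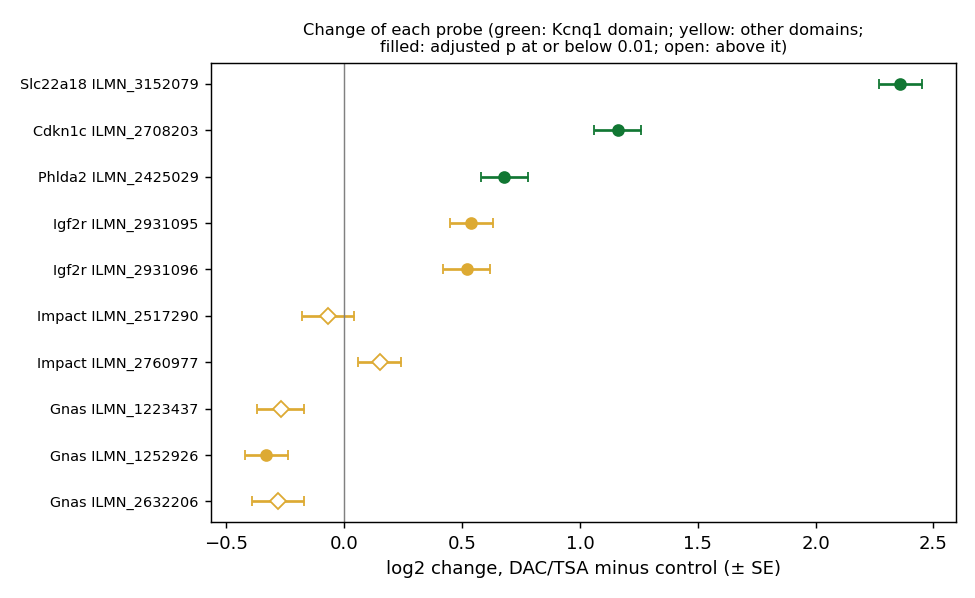
Log2 change, DAC/TSA minus control, of each of the 10 probes with its SE (green: Kcnq1 domain, yellow: other domains, filled: adjusted p of 0.01 or less, open: above it). The 3 Kcnq1 domain probes lie between 0.68 and 2.36, the value for Slc22a18 being the fitted change from an undetected level, while probes of other domains lie between -0.33 and 0.54.

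The listed genes of the Kcnq1 domain were set against those of the other domains. The median log2 change was 1.16 over the 3 listed Kcnq1 domain genes and 0.15 over Igf2r, Impact and Gnas, against -0.02 over all genes. The Kcnq1 domain median is the change of Cdkn1c. It stays so with Slc22a18 at its bound of 1.78, and so it says little on the size of the Slc22a18 change. Among the measured members, each of the 3 changes in the Kcnq1 domain was above each of the 3 changes elsewhere. The gap between Phlda2 (0.68, 95% interval 0.47 to 0.89) and Igf2r (0.54, 0.35 to 0.73) was within their intervals. This order does not hold beyond the members. Of the further listed imprinted genes elsewhere, H13 (1.69, brightest probe) lay above Cdkn1c, and Atp10a (0.69) was level with Phlda2. Near the members on the chromosome, Tssc4 (0.12), Nap1l4 (-0.10) and Osbpl5 (0.07) were not called, while Cd81 (0.68) was called higher. With 3 genes on each side the difference between domains was not tested, and 4 of the 7 listed genes of other domains were not analysed. With neqc background correction the median of the Kcnq1 domain was 1.55.

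Along the chromosome the 3 members lie side by side among the measured genes. In annotated order, 14 genes between Prr33 and Dhcr7 were measured. On the side of Cdkn1c, Tssc4 had a change of 0.12 ± 0.09 (SE, adjusted p = 0.245, limma) and Cd81, a tetraspanin, rose by 0.68 ± 0.18 (adjusted p = 0.0062). The groups of Cd81 overlapped, and its call was lost under median scaling (adjusted p = 0.0911, limma). Next to Phlda2, the histone chaperone gene Nap1l4 had a change of -0.10 ± 0.09 (adjusted p = 0.346). Cars, a cysteinyl-tRNA synthetase gene, fell by 0.30 (adjusted p = 0.0084), at signals near background and detected on 2 of 3 treated arrays. The Cars call was lost under median scaling and without any one of control replicates 2 and 3 and DAC/TSA replicates 1 and 2. The decoy receptor gene Tnfrsf22 had a change of 0.00 ± 0.09 (adjusted p = 0.979) and Osbpl5, an oxysterol-binding protein gene, of 0.07 ± 0.10 (adjusted p = 0.594). In mouse, Cd81, Tssc4, Nap1l4 and Osbpl5 are known as imprinted mainly in the placenta. At the outer ends Mrgprg (0.02 ± 0.11), Mrpl23 (0.06 ± 0.09) and Prr33 (0.20 ± 0.11) did not pass the test, and Dhcr7, an enzyme of cholesterol synthesis, rose by 0.54 ± 0.09 (adjusted p = 0.000205).

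**Figure D3:**
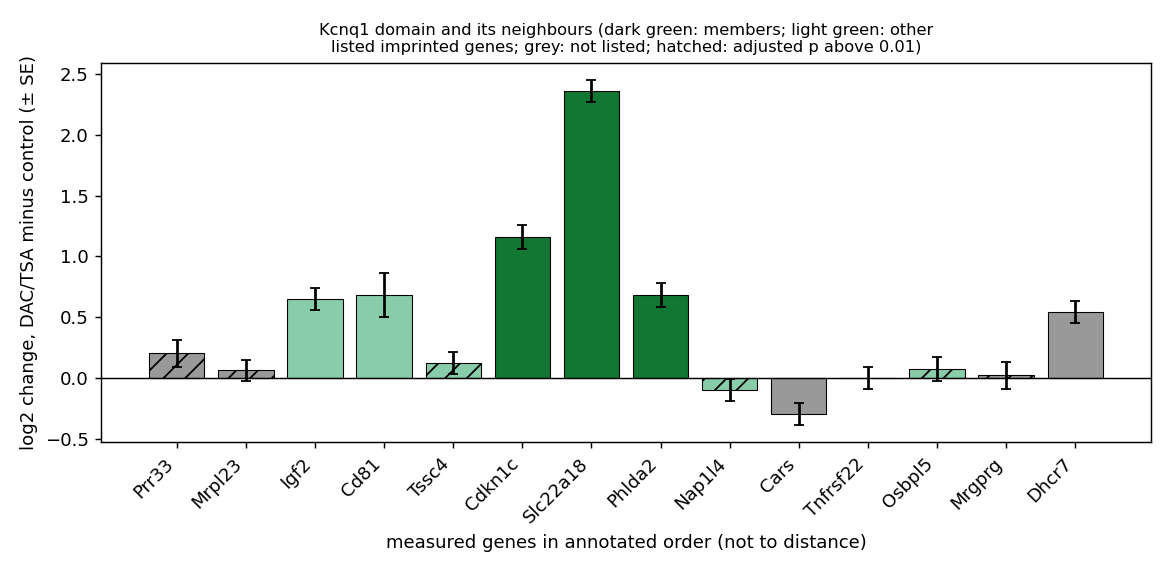
Log2 change with SE of the 14 measured genes from Prr33 to Dhcr7 in annotated order, without their distances (dark green: members, light green: other listed imprinted genes, grey: not listed as imprinted, hatched: adjusted p above 0.01). Cdkn1c, Slc22a18 and Phlda2 stand at 1.16, 2.36 and 0.68 between Tssc4 at 0.12 and Nap1l4 at -0.10; the bars of Slc22a18 and Igf2 are fitted changes from undetected control levels.

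Igf2, the fetal growth factor gene of the neighbouring domain and the ligand removed by Igf2r, was detected only after treatment. Its log2 signals were 5.37, 5.41 and 5.33 in control and 6.12, 6.06 and 5.88 in DAC/TSA cells, detected on 0 and 3 of 3 arrays. It was at least 1.17-fold higher (fitted change 0.65 ± 0.09, SE, adjusted p = 6.24e-05, limma), a level close to background on the treated arrays too.

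Among the 15 measured of 62 further listed imprinted genes, 8 were called higher and 2 lower, against 27.0% and 25.8% of all genes. Their median log2 change was 0.41 (0.26 once Igf2 stood at its bound). The filter kept Igf2 only through its treated arrays, so it had to be higher. Of the 14 detected in both groups 7 were higher and 2 lower, against 24.2% and 26.4% of all genes so detected. H13, the signal peptide peptidase, rose 3.23-fold by its brightest probe (log2 change 1.69 ± 0.09, SE), but its 6 probes did not move together and their mean changed by 0.62 ± 0.07. The phospholipid flippase gene Atp10a rose 1.62-fold (0.69 ± 0.09). Gab1, a docking protein of growth factor receptors, was 1.78-fold lower (-0.83 ± 0.08). Cd81 was called 1.60-fold higher, though its groups overlapped. Its adjusted p was 0.0911 under median scaling and 0.0173 with neqc (limma). It was between 0.0107 and 0.0331 without any one of control replicates 1 and 2 and DAC/TSA replicates 2 and 3. Under median scaling 3 of the 15 genes were higher and 1 lower, against 15.3% and 9.33% of all genes. In the reported scaling 1 was lower without any one of control replicates 1 and 2 and DAC/TSA replicates 1 and 2. Without control replicate 2, 4 were higher, and without control replicate 1 or DAC/TSA replicate 2, 5.

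**Figure D4:**
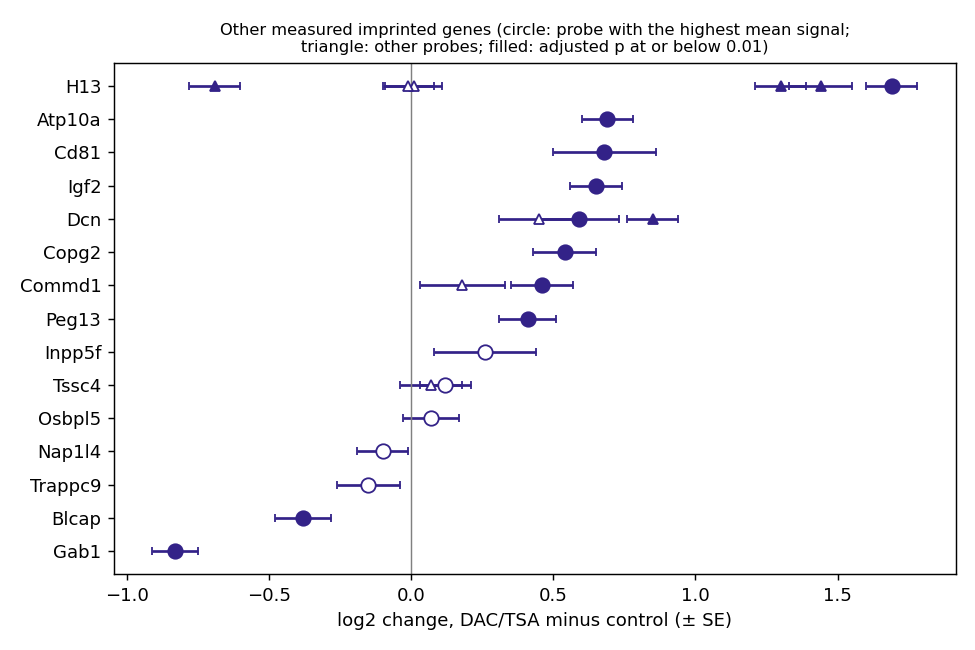
Log2 change with SE of the probes of the 15 further imprinted genes measured (circle: brightest probe, triangle: other probes, filled: adjusted p of 0.01 or less). Values run from -0.83 for Gab1 to 1.69 for the brightest H13 probe, and the H13 probes alone span -0.69 to 1.69; Igf2 is a fitted change from an undetected level.

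Of 33 listed genes that write, read or keep imprint marks 22 were measured. Of these 1 rose, 9 fell and 12 were not called, against 27.0% of all genes higher and 25.8% lower. Their median log2 change was -0.26 against -0.02 over all genes (also with Tet1, undetected after treatment, at its bound). The filter kept Tet1, one of those that fell, only through its control arrays, so it had to be lower. Trim28, the corepressor that Zfp57 brings to imprinting control regions, was 2.09-fold lower (-1.06 ± 0.10, SE, adjusted p = 1.88e-06, limma). Arid4b was 2.01-fold lower, the de novo methyltransferase Dnmt3b 1.92-fold lower and the histone demethylase Kdm1b, which prepares maternal imprints in the oocyte, 1.74-fold lower. Under median scaling 4 genes of the list were lower, against 9.33% of all genes. Dnmt1, the maintenance methyltransferase that DAC traps on DNA, and its partner Uhrf1, both named after their values were seen, had changes of -0.13 ± 0.11 (adjusted p = 0.368) and -0.09 ± 0.14 (adjusted p = 0.593).

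Other genes around or related to the members went both ways, and the counts that follow stand against 27.0% of all genes higher, 25.8% lower and 52.8% called either way. Of 50 neighbours that were not listed here as imprinted 16 were measured, of which 6 rose and 2 fell (median 0.18). The rises were led by the superoxide dismutase Sod2 near Igf2r (1.89-fold), the protease Ctsz near Gnas (1.77-fold), Cep41 near Mest (1.71-fold) and Fignl1 near Grb10 (1.49-fold). Without control replicate 2 or 3 or DAC/TSA replicate 1 or 2, 0 neighbours were lower, and without control replicate 1, 1. Of 24 relatives by sequence 16 were measured. The test called 7 of them higher and 2 lower (4 lower once the replicate number was a block), at a median of 0.05, among them Phlda3, Phlda1, the G protein subunit Gnai2 (1.93-fold higher) and the transporter Slc22a23 (1.80-fold higher). Without any one of control replicates 1 and 2 and DAC/TSA replicates 1 and 2, 1 relative was lower. The filter kept the relative Gnaz only through its treated arrays, so it had to be higher. Of the 15 relatives detected in both groups 5 were higher and 2 lower, against 24.2% and 26.4% of all genes so detected. Of 13 genes reported to be co-expressed with imprinted genes in mouse 9 were measured, of which 4 rose and 3 fell. Their median was 0.29, and 0.15 once undetected genes stood at their bounds. Of those that rose, Igfbp7 and Col6a2 were kept by the filter only through their treated arrays, so they had to be higher. The matrix protease Mmp2 was 3.77-fold lower, the inhibitor Timp2 1.73-fold higher, and the IGF-binding proteins Igfbp4 and Igfbp7 were 1.51-fold lower and at least 2.25-fold higher.

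The genes whose signals over the 6 arrays were most like those of Slc22a18 were Prune2, Gstm7 and Fn1 (Pearson r of 0.9999, 0.9996 and 0.9994). For Cdkn1c they were Tmem256, Homer1 and Ogdh (0.9993, 0.9991 and 0.999). With 6 arrays in 2 groups such values are common, since 17.8% and 17.4% of genes had an r above 0.95 with Slc22a18 and Cdkn1c.

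Promoter CpG content was also set beside the calls, over the measured genes with a single annotated window. Of 45 genes with a single annotated window and no CpG in it, Slc22a18 among them, 22.2% were called higher and 26.7% lower, and 2 rose at least 2-fold (4.44%). Of 2113 genes with 20 or more CpG, the class of Phlda2 and Igf2r, 22.2% were higher and 29.9% lower, and 5.40% rose at least 2-fold. The 3512 genes in between were higher in 29.2% and lower in 23.4% of cases, and 7.80% rose at least 2-fold.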

How the data were processed

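Total RNA of 3 control and 3 DAC/TSA cultures, grouped by the sample labels, was hybridised to Mouse WG-6 bead arrays (Illumina). The authors deposited probe signals as linear intensity with a detection p-value for each of 45281 probes, extracted with BeadStudio version 2. The authors also deposited log2 values, normalised by quantiles, of 15131 probes, which quantile normalisation of the log2 signals computed here matched within 5e-14. Those probes were named through the annotation of the platform, updated through Entrez identifiers to GRCm38.p6, so 3634 tested probes are unnamed.

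Following the study's methods, signals were quantile-normalised, log2-transformed, filtered (16760 probes with a detection p-value of 0.01 or less on at least 1 array) and tested two-sided with lmFit and eBayes of limma 3.58.1 (R 4.3.3), Benjamini-Hochberg adjusted over all probes, threshold 0.01. The fit was tried on simulated data with independent noise on each array and few changed probes. That setting differs from these data, where many probes were called and arrays deviated together, so it does not give the error rate here. The brightest probe stood for a gene. Errors of changes are SEs of the fit. The series' design calls the samples biological replicates. The arrays, 3 per group, limit the precision. No slide or scan was given to test as a batch. Same-numbered control and DAC/TSA arrays deviated together from their group means (correlations 0.34, 0.24 and 0.65 across probes), so a fit with the replicate number as a block was also run. This pairing is read from the data and not from the labels, and control 2 correlated better with DAC/TSA 1, at 0.37. Alternatives were median scaling, neqc, other filters, thresholds and probe rules, array weights and leaving out each array, and, added after seeing the data, a filter on detection in both groups. Named were the members, the 4 largest called changes of each list, measured neighbours in the Kcnq1 domain and the 3 genes most like Slc22a18 and Cdkn1c. Members and lists were chosen with earlier results of these data known. Promoter windows came from RefSeq. Windows of Cdkn1c, Impact and H19 were not used here.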

Additional observations from a re-analysis of the deposited data

How the results depend on the processing

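Slc22a18 and Cdkn1c kept direction and call under all alternatives that measured them (log2 changes of 2.30 to 3.17 and 1.09 to 1.55), Slc22a18 not being measured among probes detected in both groups, a restriction chosen after seeing the data. Phlda2 missed only the 2-fold minimum. Impact stayed uncalled (0.04 to 0.18), and its dimmer probe changed sign without DAC/TSA replicate 2 (0.01), as Osbpl5 did without control replicate 2 (-0.01). With the replicate number as a block, 1 member was lower (Gnas), and the block changed no other member gene's call. Leaving out single arrays gave 4 members higher and 0 lower each time, 2002 to 2391 of all genes higher and 1847 to 2328 lower, and 3103 to 3775 probes higher and 3126 to 4044 lower, with medians of 1.09 to 1.23 for the Kcnq1 domain and 0.13 to 0.18 for other domains.

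Median scaling in place of quantiles gave 2032 probes and 1336 genes higher and 1286 and 815 lower, which raised the share of higher calls from 51.1% to 62.1%. Under it 3 other imprinted genes were higher and 1 lower, 3 and 0 neighbours, 4 and 1 relatives and 2 and 1 co-expressed genes, and 4 keepers of imprint marks were lower. At a 2-fold minimum 920 probes and 617 genes were higher and 525 and 334 lower, among them 2 members higher, 1 and 0 other imprinted genes, 0 and 0 neighbours, 2 and 0 relatives, 0 and 2 keepers and 1 and 1 co-expressed genes. With neqc the Kcnq1 domain median was 1.55 and 1 other imprinted gene was lower. Among probes detected in both groups that median was 0.92 over the remaining 2 genes, 1 neighbour was lower and 2 co-expressed genes were higher. Averaging probes gave a median of 0.04 for other domains, 1 neighbour lower and a change of 0.62 for H13, by that method's own construction over probes that disagree. The replicate block gave 4 relatives lower. The causes were not tested.

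Leaving out single arrays gave 4 to 7 other imprinted genes higher and 1 to 2 lower, 0 to 2 neighbours lower and 1 to 3 relatives lower. Over these fits the dimmer Impact probe ranged from -0.18 to 0.01 and Osbpl5 from -0.01 to 0.15. Signals near background limit Slc22a18, Igf2, Cdkn1c in control cells, the dimmer Impact probe and the dimmest Gnas probe.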

Other observations

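H13 was the further imprinted gene with the largest change by the brightest probe, but not by the mean of its 6 probes (0.62 ± 0.07, SE). That mean was smaller in size than the changes of Gab1, Atp10a and Cd81. It was near the mean over the Dcn probes (0.63) and the fitted change of Igf2 from an undetected level (0.65). The H13 probes differed from each other. In mouse, H13 makes transcripts of different length from its parental copies, the shorter ones ending before the retrogene Mcts2 in its intron, whose promoter is methylated on the maternal copy. The brightest H13 probe, ILMN_2742160, had log2 signals of 9.66, 9.63 and 9.62 in control and 11.40, 11.35 and 11.23 in DAC/TSA cells. ILMN_2700292 rose by 1.44 ± 0.11 (SE), and ILMN_2519110 was undetected in control cells and at least 1.70-fold higher. In contrast, ILMN_1212794, tied to the same transcript record as both bright probes, went from 7.40, 7.42 and 7.50 to 6.68, 6.79 and 6.77, a fall by 0.69 (adjusted p = 2.02e-05, limma) that was not called under median scaling (adjusted p = 0.0241). ILMN_1238747 and ILMN_1258366 had changes of 0.01 ± 0.10 and -0.01 ± 0.09. Which H13 transcripts each probe reads was not determined here, since no probe sequences were used.

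Decorin (Dcn), an imprinted matrix proteoglycan, had 3 probes, of which 2 rose and the third had a change of 0.45 ± 0.14 (adjusted p = 0.0165, limma). The brightest changed by 0.59 ± 0.14 and was called in the reported fit, but not under median scaling (adjusted p = 0.111).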
